A study of Rattus norvegicus with 62 samples.

Results

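The genes described here make the proteins that store transmitter in synaptic vesicles and release it, and they were taken by name from both deposited count tables. All 39 listed genes were found among the 40982 genes of each table, and all 39 passed the filter on low counts in both. The tissue was dorsal root ganglion of rats of both sexes with chronic constriction injury, in which loose ligatures around a peripheral nerve give lasting neuropathic pain, and sequence was read from polyadenylated RNA of whole ganglia. The injured side (ipsilateral) was compared with the opposite side (contralateral) in 5 groups: males at 24 h (6 libraries per side), 1 week (7 per side) and 5 weeks (5 per side), and females at 1 week (7 per side) and 5 weeks (6 per side). The series asks how the ganglia of each sex change while neuropathic pain resolves. The labels call the treatment chronic constriction injury on both sides, so the controls are ganglia of operated rats, and no library of an unoperated animal was analysed here. Strain, age, the ligated nerve and the number of animals per library are not given in the sources used here. The labels of the male 1 and 5 week libraries name the ganglion as L4.

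A synaptic vesicle fuses when a SNARE protein on its surface (synaptobrevin) zips together with SNARE proteins of the cell membrane (syntaxin and SNAP-25), and calcium-binding synaptotagmins time that fusion. Before this, Rab3 proteins and the scaffolds of the active zone bring vesicles to the release site, and Munc13 and CAPS proteins prime them. A sensory neuron in the ganglion has its release sites far away, in the spinal cord and the periphery, so the transcripts counted here were made in cell bodies for proteins that are mostly shipped down the axon.

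Library totals ran from 16.9 to 33.5 M counts. The gene most used as a mark of injured sensory neurons, Atf3, was higher on the injured side by 4.74 on the log2 scale at 24 h and by 4.46 to 5.27 in the later groups, and all 6 nerve injury genes chosen as a check were higher in each group at 1 and 5 weeks. The share of counts on ribosomal RNA genes did not overlap between the sides of 1 group: in females at 1 week it was 1.69% to 2.76% on the opposite side and 0.692% to 1.42% on the injured side. Results of that group are therefore also given with this share as a covariate and with the opposite-side libraries of 5-week females as controls. Same-numbered libraries of the sides deviated from their group means together in males at 1 and 5 weeks and in females at 5 weeks, and values with the replicate number as a block are given where they change a call. In bulk tissue, fewer cells of a type and less RNA per cell cannot be told apart. Nothing says that libraries of a group came from separate animals, so p-values measure the spread between libraries.

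At 1 and 5 weeks more of these genes were lower than higher on the injured side, while at 24 h 8 were called, fewer than in any later group. In males at 24 h, 5 of the 39 were higher and 3 lower (adjusted p under 0.05 by edgeR's quasi-likelihood test with Benjamini-Hochberg adjustment, over all genes tested), where 8.20% of all genes tested were higher and 5.89% lower. In males at 1 week 5 were higher and 25 lower, against 23.6% and 23.4% of all genes. At 5 weeks the male counts were 5 and 22, against 16.0% and 18.7%. In females they were 5 and 23 at 1 week, against 23.9% and 21.7%, and 5 and 15 at 5 weeks, against 22.8% and 19.1%. At 1 and 5 weeks the share of release genes called lower was above that of all genes and the share called higher below it. At 24 h both shares were above those of all genes. The list was chosen with earlier results of these data known, and these differences were not tested.

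The median log2 difference of the 39 genes (injured minus opposite side) was -0.01 at 24 h, -0.31 and -0.23 in males at 1 and 5 weeks, and -0.26 and -0.05 in females at 1 and 5 weeks. The median over all genes tested lay between -0.01 and 0.01 in these comparisons. The libraries of the sides did not overlap for 21 lower and 4 higher genes in males at 1 week, where this held for 22.1% of all genes tested in either direction. The counts were 15 and 3 in males at 5 weeks (21.0% of all genes), 17 and 3 in females at 1 week (20.9%), 11 and 5 in females at 5 weeks (21.7%), and 1 and 4 at 24 h (5.44%). With the ribosomal share as covariate, 3 were higher and 21 lower in females at 1 week, and with the opposite side of the other week as controls 5 were higher and 26 lower. The same exchange of controls gave 13 higher and 16 lower in males at 5 weeks and 10 higher and 15 lower in females at 5 weeks. The split at 5 weeks thus varied with the opposite-side libraries that served as controls. This exchange also adds the difference between weeks, for which 7.32% of all genes were called higher on the opposite side of males. Shares of all genes called with the covariate or the exchanged controls are not given here, so these counts cannot be set against all genes.

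**Figure D1:**
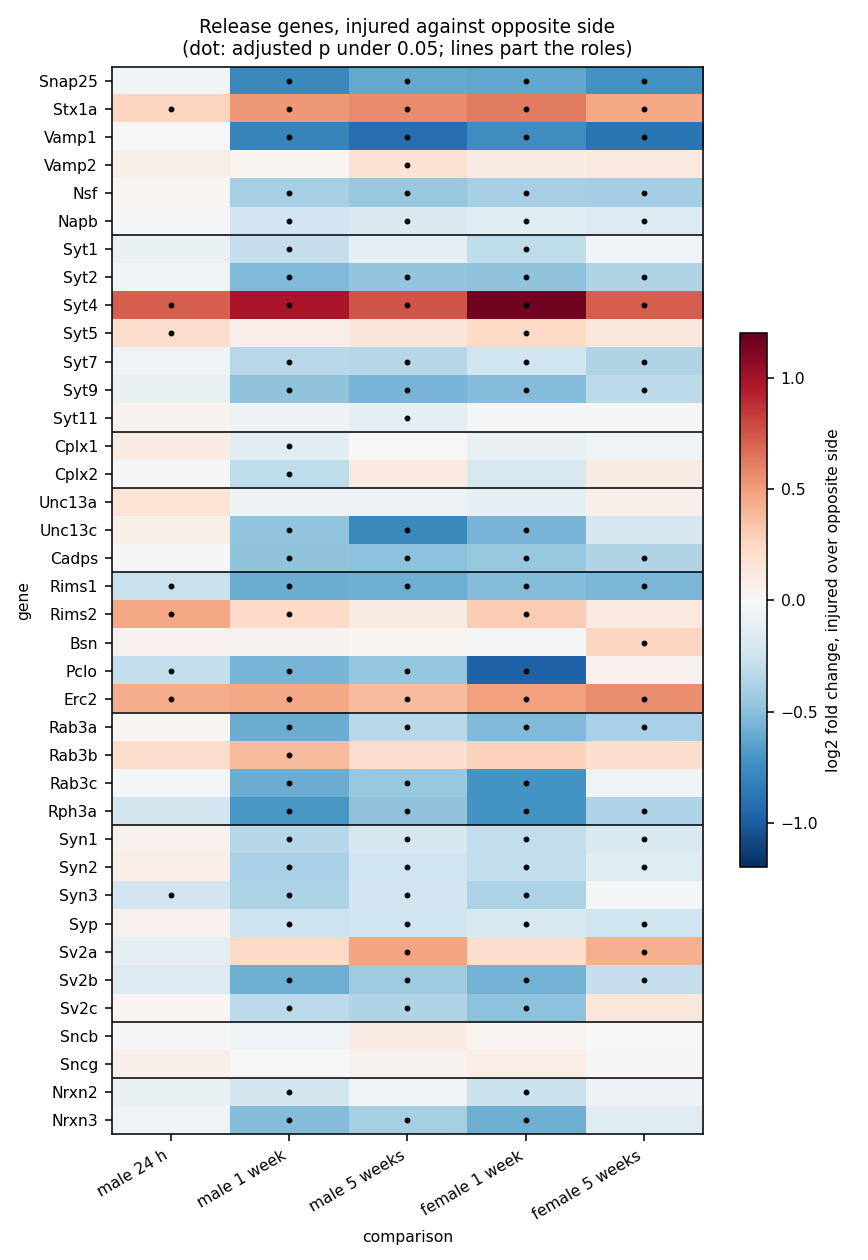
Log2 fold change of the injured over the opposite side (colour, blue lower and red higher) for 38 genes (rows, grouped by role between black lines) in 5 comparisons (columns), with a dot where the adjusted p was under 0.05. Doc2b, the gene with the fewest counts, is left out, and the male 24 h column has 8 dots against 20 to 30 in the others.

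None of the 39 genes passed the test in opposite directions in different groups. Stx1a, Syt4 and Erc2 were higher in all 5 groups, and Rims1 was lower in all 5. Besides Rims1, 14 genes were lower in each of the 4 groups at 1 and 5 weeks: Snap25, Vamp1, Nsf, Napb, Syt2, Syt7, Syt9, Cadps, Rab3a, Rph3a, Syn1, Syn2, Syp and Sv2b. Doc2b, Unc13a, Sncb and Sncg passed in none of the groups. With the other week's opposite-side libraries as controls this picture was different for some genes: Bsn, Sncb, Sncg, Vamp2, Cplx1 and Cplx2 were called lower in males at 1 week and higher in males at 5 weeks, and Unc13a was called lower at 1 week in both sexes (-0.13 and -0.22) and higher in females at 5 weeks (0.17).

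Markers of other cells and of the neuronal body moved in the same comparisons, and their part in these differences was not tested. The summed level of 24 genes of the neuronal body and cytoskeleton had a median of 49964 CPM (counts per M of scaled library size) on the opposite side and 38677 on the injured side of males at 1 week, with no overlap (47751 to 52628 against 34706 to 43232). The summed level of the 39 release genes was also lower there, with medians of 12688 and 10303. Cytoskeleton genes of high level weigh most in the neuronal sum: Nefm, Map1b, Nefl and Nefh had means over all libraries of 8415, 7325, 6861 and 6444 CPM. Of the 24 neuronal genes, 15 were lower and 6 higher in males at 1 week (23.4% and 23.6% of all genes tested), then 11 lower and 7 higher in males at 5 weeks (18.7% and 16.0%). Female ganglia had 13 lower and 9 higher at 1 week (21.7% and 23.9%), then 9 lower and 6 higher at 5 weeks (19.1% and 22.8%), and at 24 h 1 was lower and 3 higher (5.89% and 8.20%). The share of neuronal genes called higher in males at 1 week was near that of all genes. Of 14 macrophage genes, 12 were higher in males at 1 week (23.6% of all genes tested) and in females at 1 and 5 weeks (23.9% and 22.8%). In males at 5 weeks 5 were higher and 1 lower (16.0% and 18.7%). Their summed level was 127 to 309 CPM on the opposite side and 317 to 878 on the injured side of males at 1 week, and 190.1 to 538 against 215 to 325 at 24 h. Myelin genes were lower for 9 of 12 in both sexes at 1 week (23.4% of all genes in males and 21.7% in females). All 9 erythrocyte genes were higher in males at 1 week (23.6% of all genes), by a median of 1.61 on the log2 scale. None was called in the other groups. Their summed level in males at 1 week was 142 to 905 CPM on the opposite and 660 to 2244 on the injured side. Their side difference changed from 24 h to 1 week by a median of 2.74, with 8 of 9 called, where 11.0% of all genes were called higher and 12.0% lower. Of 11 fibroblast and vessel genes, 8 were higher in females at 5 weeks, against 22.8% of all genes. Their median was 0.53, with a summed level of 1072 to 1961 CPM on the opposite and 1794 to 2718 on the injured side.

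Of 11 markers of spinal cord or central nervous tissue, 7 were tested; Mnx1 had no count in any library, the highest count of Gad2 was 10 and that of Chat 16. In each of the 4 groups at 1 and 5 weeks, 2 of the 7 were higher and 1 lower (16.0% to 23.9% and 18.7% to 23.4% of all genes tested). Gfap, a filament gene of astrocytes that satellite glia of the ganglion also make, was higher by 1.81 to 2.13 on the log2 scale there and by 2.24 at 24 h. Slc6a5, a glycine transporter gene with at most 42 counts in a library, was higher by 1.13 to 1.48, and Camk2a, a kinase gene of neurons, fell by 0.35 to 0.48. The part of these markers in the release gene differences was not tested.

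Levels on the opposite side, per kilobase of exon, spanned from 1281 CPM per kilobase for Sncg (γ-synuclein, abundant in peripheral sensory neurons) to 0.292 for Doc2b (mean of the 5 group means). Snap25 came second at 586, then Cplx1 at 450.2, Vamp1 at 404, Rab3a at 321, Syp at 295 and Syt11 at 247. The ranges of the 5 group means of the neighbours Rab3a (296 to 338) and Syp (277 to 313) overlapped, but Rab3a was above Syp in each of the 5 groups. Those of Snap25 (482 to 690.2), Cplx1 (421 to 473) and Vamp1 (387 to 416) did not overlap. Below Sncg, genes for proteins of the vesicle and of the fusion machine filled the top of the order. Those of the large scaffolds Bsn (7.73), Erc2 (6.63), Pclo (5.53), Rims2 (4.41) and Rims1 (3.72) lay near its foot. The genes that rose on the injured side in every group were of middle or low level: Syt4 at 66.8, Stx1a at 9.62 and Erc2 at 6.63.

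**Figure D2:**
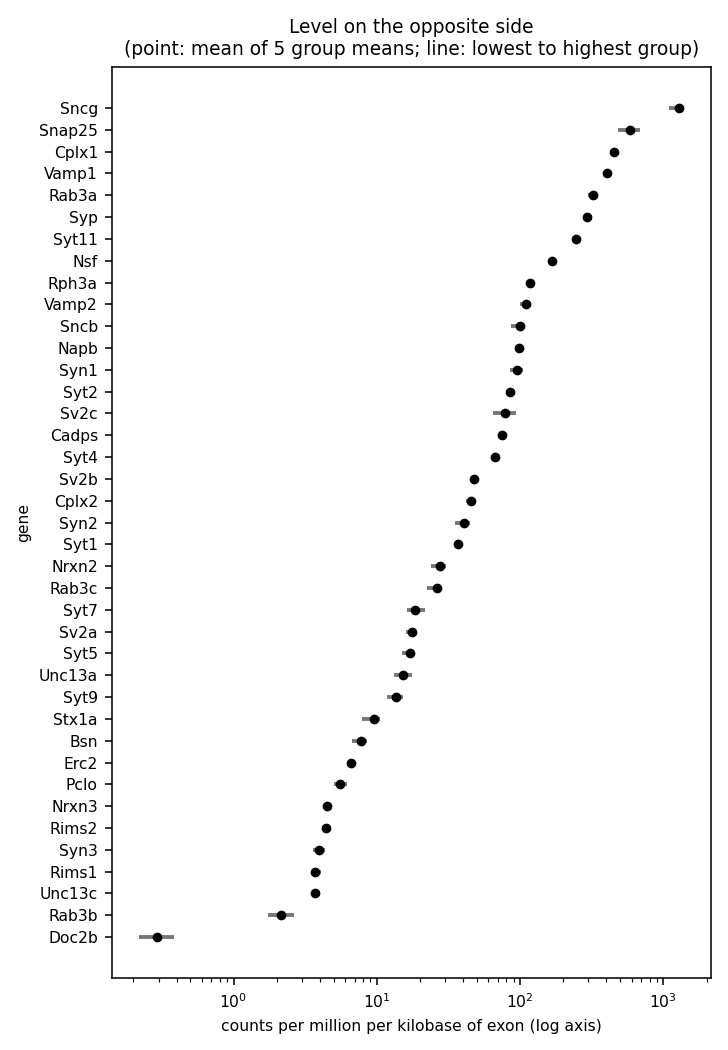
Level on the opposite side for each gene (rows), in CPM per kilobase of exon on a log axis; points are the mean of 5 group means and lines run from the lowest to the highest group. Sncg is highest at 1281 and Doc2b lowest at 0.292.

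Of the 6 SNARE and recycling genes, 4 were lower (Snap25, Vamp1, Nsf and Napb) and Stx1a was higher in each of the 4 groups at 1 and 5 weeks. Of all genes tested, 18.7% to 23.4% were lower and 16.0% to 23.9% higher in these groups. Vamp1 encodes synaptobrevin-1, the vesicle SNARE of many spinal and neuromuscular synapses. On the opposite side of males at 1 week its lowest, median and highest library had 959, 1085 and 1127 CPM, and on the injured side 525, 589 and 783. The highest injured library stayed below the lowest opposite one, and Vamp1 fell by 42.7% there (log2 fold change -0.80 ± 0.07, SE). At 5 weeks the 5 opposite male libraries had 905, 1048, 1144, 1117 and 1151 CPM and the 5 injured ones 524, 565, 661, 548 and 554, again without overlap (log2 fold change -0.91 ± 0.08). Female libraries went from 1040.3, 1089.9 and 1131 to 557, 623 and 762 at 1 week and from 1039, 1093 and 1192 to 534, 572 and 719 at 5 weeks. At 24 h the sides lay on top of each other, at 944 to 1127 against 942 to 1107 CPM.

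Snap25 encodes SNAP-25, the SNARE attached to the cell membrane that binds both syntaxin and synaptobrevin, and it too was lower in each of the 4 groups at 1 and 5 weeks. Its lowest, median and highest libraries were 1027, 1103 and 1166 CPM on the opposite side of males at 1 week and 526, 647 and 729 on the injured side. At 5 weeks the opposite male libraries had 1088, 1157, 1356, 1239.6 and 1275 CPM and the injured ones 709, 801, 947, 740.3 and 787. No injured library reached the level of an opposite one in either group. The log2 fold changes were -0.77 ± 0.07 and -0.62 ± 0.08 in males at 1 and 5 weeks, and -0.63 ± 0.06 and -0.73 ± 0.06 in females. With the ribosomal share as covariate the female 1 week value was -0.70, and with the controls of the other week it was -0.74. At 24 h Snap25 was at 1239 to 1520.3 CPM on the opposite and 1197 to 1424 on the injured side.

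Vamp2 encodes synaptobrevin-2, the other vesicle SNARE measured, and its values differed from those of Vamp1. It had 292 to 323 CPM on the opposite and 302 to 344 on the injured side of males at 1 week (log2 fold change 0.02 ± 0.04). It passed the test in males at 5 weeks alone, where it rose from 367, 343, 347, 331 and 373 CPM to 404, 418, 400.1, 356 and 405 (log2 fold change 0.17 ± 0.04). In females at 5 weeks the sides of Vamp2 did not overlap, and each of the 6 injured libraries was above the opposite library of its number. The value there was 0.12 ± 0.05 and did not pass (adjusted p = 0.0658), but it did with the replicate block (adjusted p = 0.0218), with the sides of that group fitted alone (0.11, adjusted p = 0.0058) and with the 1 week controls (0.20, adjusted p = 0.00192, all by edgeR's quasi-likelihood test). With the 5 week controls the male 1 week value was -0.15 (adjusted p = 0.00278). The difference between Vamp1 and Vamp2 was not tested. Nsf, the ATPase that takes spent SNARE bundles apart, fell by 24.2%, 27.0%, 23.9% and 24.5% in males at 1 and 5 weeks and females at 1 and 5 weeks. Napb (β-SNAP, its adaptor) fell less, by 9.71% to 14.9%. Its call was lost in females at 1 week without the opposite library 7 (adjusted p = 0.0569) and in males at 5 weeks without the opposite library 3 or the injured library 5 (adjusted p up to 0.0848 by edgeR's quasi-likelihood test).

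Stx1a, the syntaxin that pairs with SNAP-25 at the membrane, moved the other way. Opposite libraries of males at 1 week had 21.1, 22.3 and 26.4 CPM (lowest, median, highest) and injured ones 30.5, 33.0 and 35.6. At 5 weeks the males had 24.5, 21.2, 25.2, 20.2 and 26.3 against 30.8, 40.0, 35.0, 33.5 and 34.5. The sides did not overlap in any of the 4 groups at 1 and 5 weeks, and Stx1a rose by 43.3% and 48.1% in males and by 54.4% and 38.1% in females. At 24 h the ranges touched (16.2 to 21.7 against 21.3 to 25.4 CPM) and the rise was 19.9%. That 24 h call was lost without the opposite library 5 (adjusted p = 0.0541 by edgeR's quasi-likelihood test).

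**Figure D3:**
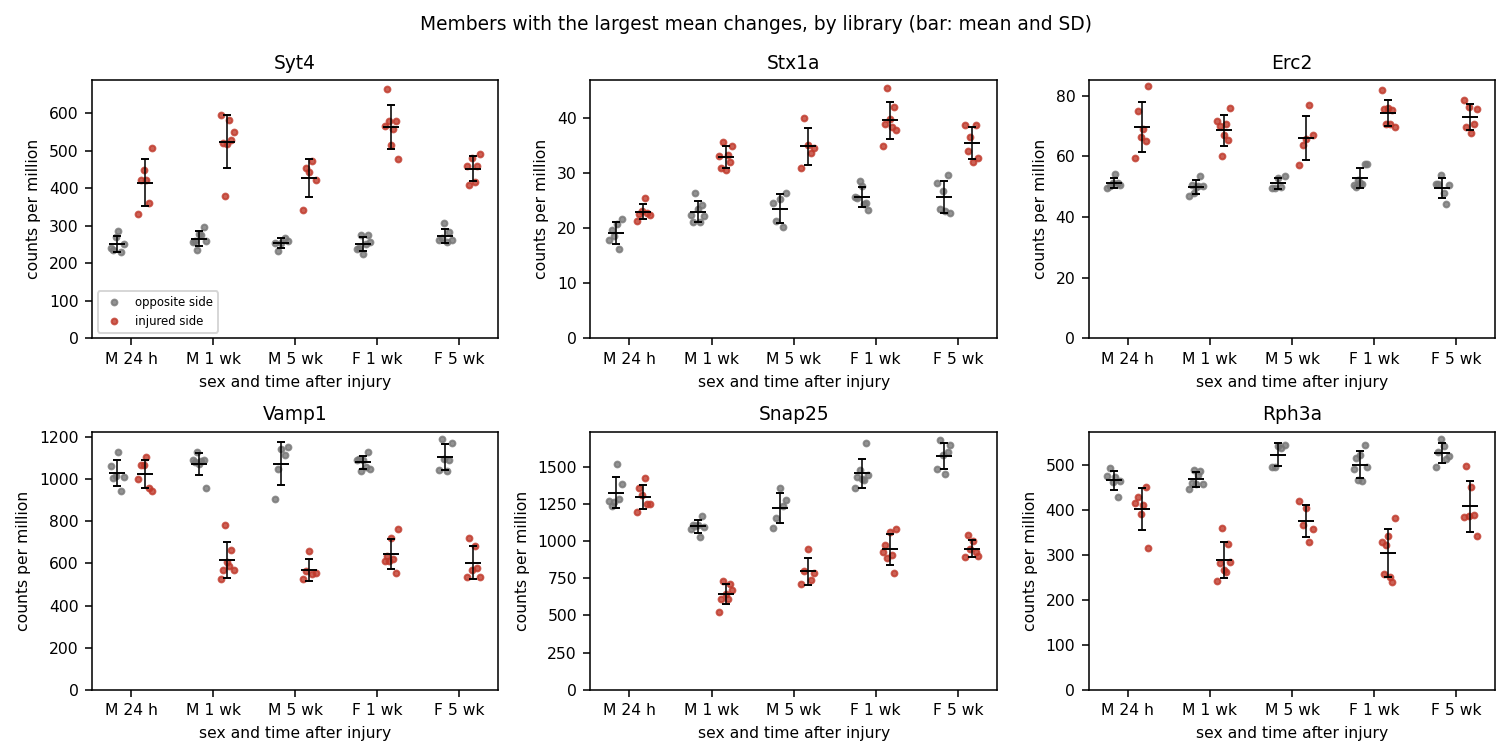
Levels in CPM (y axis) of the 3 genes with the highest and the 3 with the lowest mean log2 fold change at 1 and 5 weeks, by sex and time (x axis); points are libraries, grey for the opposite and red for the injured side, and bars show the mean and SD. Syt4 and Erc2 are apart in all 5 groups, and Vamp1 and Snap25 overlap at 24 h.

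Promoters are shown for 4 of the genes that change most or in every group: Erc2 and Stx1a (higher in all 5 groups), Rims1 (lower in all 5) and Vamp1 (largest mean fall). Syt4, which had the largest mean rise and was also higher in all 5 groups, is not shown. Each is the 250 bases before the RefSeq gene start in build GRCr8, 5′ to 3′ on the gene's strand: Erc2 at chr16:2819262-2819511 (+), Rims1 at chr9:32692773-32693022 (-), Stx1a at chr12:27306472-27306721 (-) and Vamp1 at chr4:159698644-159698893 (+). Capitals mark the motifs searched on both strands, which did not overlap: the AP-1 element TGANTCA, to which ATF3 and Jun family proteins can bind, the cAMP response element TGACGTCA and the GC box GGGCGG.
Erc2: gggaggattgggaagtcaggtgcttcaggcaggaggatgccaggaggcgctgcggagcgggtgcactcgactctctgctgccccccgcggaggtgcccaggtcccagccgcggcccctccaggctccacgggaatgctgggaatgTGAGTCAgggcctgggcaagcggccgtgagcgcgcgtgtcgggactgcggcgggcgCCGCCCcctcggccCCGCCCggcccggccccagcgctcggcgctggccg
Rims1: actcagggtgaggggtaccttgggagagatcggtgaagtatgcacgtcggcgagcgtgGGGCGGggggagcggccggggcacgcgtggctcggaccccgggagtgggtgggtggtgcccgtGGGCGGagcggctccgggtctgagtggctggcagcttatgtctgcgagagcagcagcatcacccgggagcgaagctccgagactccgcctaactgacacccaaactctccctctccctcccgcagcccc
Stx1a: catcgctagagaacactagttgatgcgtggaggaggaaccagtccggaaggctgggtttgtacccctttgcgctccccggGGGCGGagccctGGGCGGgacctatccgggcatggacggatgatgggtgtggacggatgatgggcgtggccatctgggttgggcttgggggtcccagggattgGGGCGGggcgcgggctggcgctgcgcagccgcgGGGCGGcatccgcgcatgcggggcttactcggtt
Vamp1: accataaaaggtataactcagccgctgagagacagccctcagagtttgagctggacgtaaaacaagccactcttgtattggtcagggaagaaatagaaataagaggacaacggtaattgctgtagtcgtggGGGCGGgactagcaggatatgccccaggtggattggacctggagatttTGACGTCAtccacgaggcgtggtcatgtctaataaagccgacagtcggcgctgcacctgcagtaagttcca
The AP-1 element of Erc2 has its first base 105 bases before the start, and Erc2 was the 1 of 31 release genes with an entry to hold it, against 6.34% of all 33469 promoters of this length. The cAMP response element of Vamp1 begins 71 bases before its start; it stood in 2 of the 31 (Syn1 and Vamp1) and in 1.59% of all. GC boxes stood in 22 of the 31 and in 30.5% of all promoters, with 4 in Stx1a, 2 each in Erc2 and Rims1 and 1 in Vamp1. Syt4 was among the 31 and held none of these motifs. A match describes letters only, and no binding was measured. Snap25, Syt5, Syt7, Doc2b, Rims2, Syn3, Nrxn2 and Nrxn3 had no entry.

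Among the 8 calcium sensor genes, Syt4 stood apart by its rise, and Syt2, Syt7 and Syt9 were lower in each of the 4 groups at 1 and 5 weeks. Syt4 encodes an unusual synaptotagmin on vesicles of neuropeptide and growth factor release, and it is known as a gene induced by activity. At 24 h its lowest, median and highest libraries were 231, 246 and 286 CPM on the opposite side and 332, 420.3 and 508 on the injured side. At 1 week they went from 236, 259 and 296 to 379, 528 and 595 in males and from 225, 252 and 276 to 478, 565 and 665 in females. No injured library fell within the opposite range in any group. The opposite 5 week male libraries had 255, 233, 254, 267 and 258 CPM and the injured ones 342, 453, 443, 471 and 422. The fold change was 1.64 at 24 h, 1.97 and 1.68 in males at 1 and 5 weeks, and 2.23 and 1.65 in females at 1 and 5 weeks. The female 1 week log2 value of 1.16 was 1.10 with the ribosomal share as covariate and 1.04 with the controls of the other week.

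Syt2, the fast calcium sensor of many peripheral and hindbrain synapses, went from 604, 632 and 642 CPM to 400.0, 428 and 504 in males at 1 week. Its falls were 30.8% and 28.2% in males and 28.6% and 22.1% in females. Syt9 and Syt7 are sensors of vesicle and dense-core release with other calcium affinities. Syt9 fell by 19.7% to 32.0%, and Syt7 fell by 15.5% to 22.0%. Both calls in females at 1 week were lost with the ribosomal share as covariate, with values about as large: Syt9 was at -0.56 in place of -0.52 (adjusted p = 0.0501) and Syt7 at -0.25 in place of -0.24 (adjusted p = 0.281, by edgeR's quasi-likelihood test). Without 1 library, the Syt9 call in females at 5 weeks (5 of the 12 libraries in turn) and the Syt7 call in females at 1 week (4 of 14 in turn) were also lost. With the other week's controls at 5 weeks, Syt7 was at -0.14 in males (adjusted p = 0.198) and -0.15 in females (0.218), and Syt9 at -0.25 in females (0.0935).

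Syt1, the main fast sensor of forebrain synapses, fell at 1 week in both sexes, by 17.8% and 18.8%, and was at -0.12 ± 0.08 and -0.04 ± 0.08 at 5 weeks. The male 5 week value passed with the replicate block (-0.12, adjusted p = 0.033 by edgeR's quasi-likelihood test). Syt5 rose at 24 h from 26.9, 28.3 and 32.0 to 32.1, 33.3 and 35.5 CPM and in females at 1 week by 17.8%, a call lost with the ribosomal covariate (0.16 in place of 0.24, adjusted p = 0.262). Syt11, which lacks calcium binding and was the sensor gene of highest level, passed in males at 5 weeks alone, where it fell by 7.92%. That small value went to 0.0017 with the 1 week controls and its call was lost without 4 of the 10 libraries in turn. In males at 1 week Syt11 passed with the replicate block (-0.06, adjusted p = 0.0358), as did Syt5 at 5 weeks in males (0.15, 0.0279) and females (0.13, 0.0373). Doc2b, a calcium sensor of spontaneous release, had 1 to 28 counts per library, and a side difference was not detectable at this depth in most comparisons. In males at 5 weeks its value of -1.05 passed with the replicate block (-1.09, adjusted p = 0.0472) and with the ribosomal share as covariate (-1.29, adjusted p = 0.0469, by edgeR's quasi-likelihood test).

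Complexins clamp and then speed the assembled SNARE bundle, and both were lower in males at 1 week. Cplx1 fell by 9.15% (888, 929 and 988 CPM against 779.6, 851 and 933), a call lost without any 1 of 3 libraries: the opposite library 3 and the injured libraries 1 and 2. Cplx2 fell by 19.1%. In no other group did either pass, although in females at 1 week both were at an adjusted p of 0.0584 and 0.0593 and passed with the replicate block (0.0443 and 0.00126, by edgeR's quasi-likelihood test). The male 5 week value of Cplx2 was 0.11 ± 0.08, which passed with the block (adjusted p = 0.0364).

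The priming genes differed among themselves. Unc13a (Munc13-1, needed for priming at most excitatory synapses) passed in no group, with values from -0.11 to 0.16, and the 24 h value of 0.16 passed with the replicate block (adjusted p = 0.0369 by edgeR's quasi-likelihood test). Unc13c (Munc13-3, best known from cerebellum) fell by 28.1% and 41.6% in males at 1 and 5 weeks and by 32.2% in females at 1 week. The 5 week opposite male libraries of Unc13c had 37.6, 32.4, 38.8, 39.6 and 33.3 CPM and the injured ones 27.7, 22.0, 23.9, 15.6 and 17.3, with no overlap. In females at 5 weeks it was at -0.20 ± 0.11 (adjusted p = 0.144 by edgeR's quasi-likelihood test). Cadps (CAPS-1, which primes dense-core vesicles) fell by 22.0% to 29.1% in the 4 groups at 1 and 5 weeks, where no injured library overlapped the opposite ones. In males at 1 week it went from 405, 433 and 447 to 278, 300.1 and 353 CPM.

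The 5 active zone scaffold genes held both directions at every time. Erc2 (ELKS2/CAST, a scaffold that binds RIM and bassoon) rose by 36.1% at 24 h, 37.6% and 29.4% in males at 1 and 5 weeks, and 40.5% and 47.0% in females. Its libraries went from 49.6, 50.9 and 54.2 CPM to 59.3, 67.7 and 83.1 at 24 h, and from 46.9, 50.1 and 53.6 to 60.0, 70.1 and 75.8 in males at 1 week. In males at 5 weeks they were 49.6, 49.7, 52.8, 50 and 53.5 against 57.1, 63.7, 65.7, 77.0 and 66.9. The sides did not overlap in any of the 5 groups.

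Rims1 and Rims2 encode RIM1 and RIM2, related scaffolds that tether calcium channels and Rab3 vesicles, and they moved apart. Rims1 went from 56.1, 59.6 and 65.9 CPM to 43.4, 50.3 and 54.9 at 24 h and from 54.2, 58.5 and 64.8 to 34.7, 38.5 and 47.9 in males at 1 week. Rims2 went from 43.2, 47.6 and 50 to 50.3, 65.6 and 75.7 at 24 h and from 42.2, 44.6 and 48.5 to 48.7, 52.3 and 56.7 in males at 1 week. Neither gene's sides overlapped in these groups. Rims1 fell by 17.1% at 24 h and by 30.5% to 33.9% later. Rims2 rose by 37.7% at 24 h, by 17.2% in males and 23.5% in females at 1 week, and was at 0.10 ± 0.05 and 0.12 ± 0.07 on the log2 scale at 5 weeks. The female 1 week call of Rims2 was lost with the ribosomal covariate (0.29 in place of 0.30, adjusted p = 0.0656), and the female 5 week value passed with the replicate block (0.12, adjusted p = 0.0375, by edgeR's quasi-likelihood test).

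**Figure D4:**
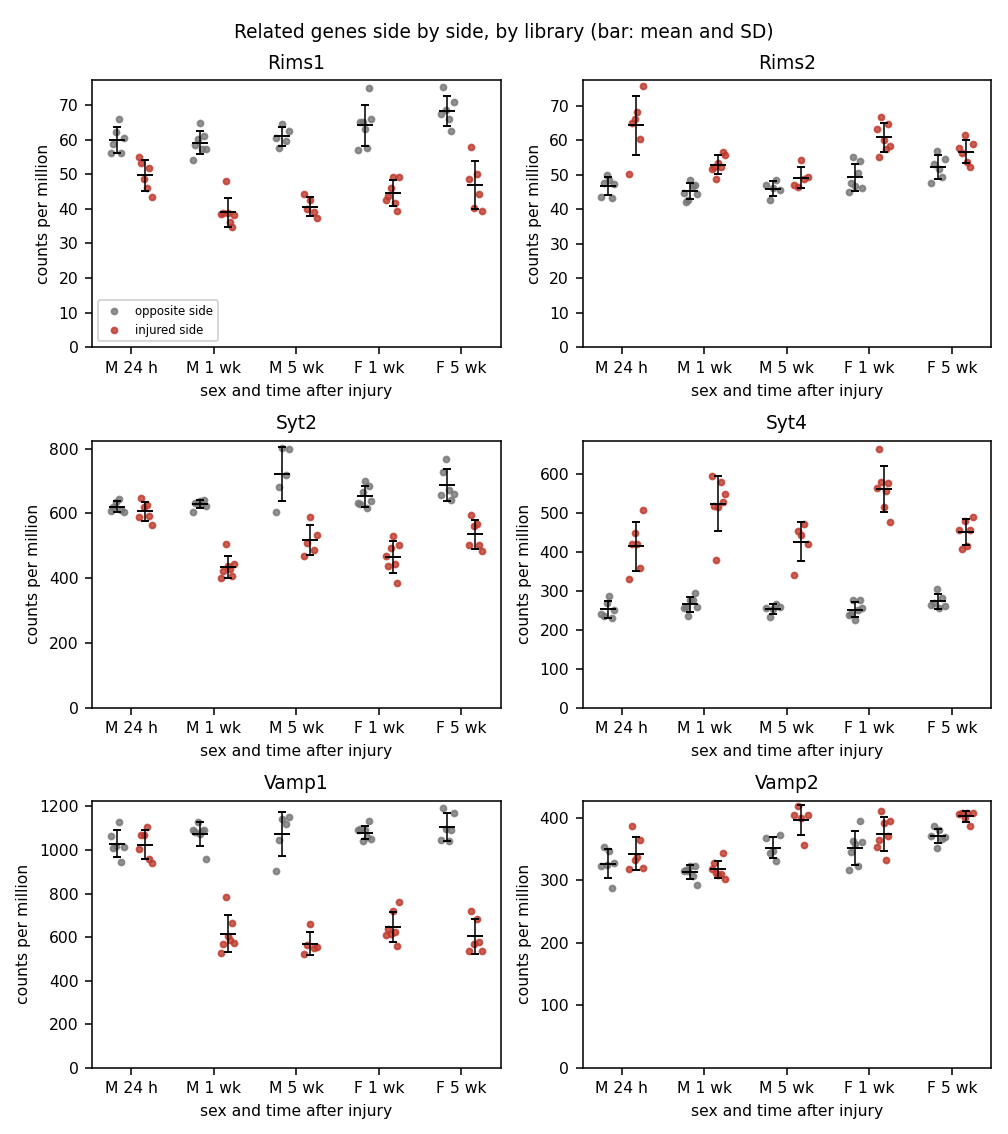
Levels in CPM (y axis) of 3 pairs of related genes, by sex and time (x axis); points are libraries, grey for the opposite and red for the injured side, and bars show the mean and SD. Rims1, Syt2 and Vamp1 lie lower on the injured side at 1 and 5 weeks, while Syt4 lies higher. Vamp2 lies close to the opposite side at 1 week and somewhat above it at 5 weeks.

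Pclo (piccolo) and Bsn (bassoon) are giant, related scaffold proteins of the active zone. Pclo fell by 18.3% at 24 h, 32.0% and 27.7% in males at 1 and 5 weeks and 48.9% in females at 1 week, but was at 0.05 ± 0.07 in females at 5 weeks. In females at 1 week the opposite libraries had 116, 123 and 134 CPM and the injured ones 55.0, 66.9 and 72.5. In females at 5 weeks they had 92.6, 99.8 and 109.7 against 92.5, 104 and 118. The sides were far apart at 1 week and overlapped throughout at 5 weeks. Bsn passed in females at 5 weeks alone, where it rose by 19.8% (124, 138 and 148 against 153, 164 and 172 CPM, no overlap).

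Of the Rab3 genes, which encode the small GTPases that dock vesicles, Rab3a and Rab3c were lower in both sexes at 1 week. Rab3a, the Rab3 gene of highest level, went from 427, 443 and 462 CPM to 251, 287 and 350 in males at 1 week, and fell by 33.8% and 20.5% in males at 1 and 5 weeks and by 30.6% and 23.4% in females. Rab3c went from 40.5, 44.2 and 50.3 to 26.3, 30.4 and 33.8 in males at 1 week and from 42.7, 46.0 and 50.6 to 24.2, 27.7 and 33.0 in females at 1 week. In females at 5 weeks its sides overlapped, with 34.6, 41.3 and 49.8 against 35.6, 39.5 and 45.6 CPM. Rab3b, with a few CPM in each library, was called higher in males at 1 week (0.38 ± 0.12), and this call was lost with the 5 week controls (0.14, adjusted p = 0.395, by edgeR's quasi-likelihood test). Its female 1 week value passed with the replicate block (0.29, adjusted p = 0.0288). Rph3a (rabphilin-3A, the effector that binds Rab3) fell by 38.4% and 28.2% in males and by 39.3% and 22.6% in females. Its libraries went from 448, 461 and 489.9 to 242, 283 and 360.4 CPM in males at 1 week. In males at 5 weeks they had 497, 496, 543, 539 and 545 CPM on the opposite side and 419.6, 368, 405, 329 and 358 on the injured side.

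Of the 7 vesicle surface genes, 6 were lower at 1 week in males (23.4% of all genes tested) and females (21.7%). The same 6 were lower and 1 was higher in males at 5 weeks (18.7% and 16.0%). In females at 5 weeks 4 were lower and 1 higher (19.1% and 22.8%). Synapsins tie vesicles to each other and to actin. In the 4 groups at 1 and 5 weeks Syn1 fell by 12.0% to 21.0% and Syn2 fell by 9.8% to 23.6%, each most in males at 1 week. Syn3 fell by 14.7% to 23.2% in these groups apart from females at 5 weeks, and fell by 14.8% at 24 h. With the other week's controls the 5 week calls of Syn1 and Syn2 were lost in both sexes, with values from -0.11 to -0.04, and so was that of Syn3 in males (-0.06). Calls of Syn1 in males at 5 weeks and Syn2 in females at 5 weeks were each lost without 1 of 2 libraries (adjusted p up to 0.0554 and 0.0649).

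Syp (synaptophysin, the vesicle surface gene of highest level here) had 642, 668 and 725 CPM on the opposite and 519, 552 and 635 on the injured side of males at 1 week. It fell by 12.7% to 15.8% in the 4 groups, less than Snap25 or Vamp1. Of the SV2 glycoproteins, which bind synaptotagmin, Sv2b fell by 17.9% to 33.3% (at 24 h it was at -0.17, passing with the replicate block at an adjusted p of 0.0128), whereas Sv2a rose by 38.4% in males and 34.0% in females at 5 weeks. In males at 5 weeks Sv2a had 66.3, 86.4, 74.6, 68.0 and 62.4 CPM on the opposite side and 81.7, 114, 104, 106 and 89.2 on the injured side, and each injured library was above the opposite library of its number. At 1 week Sv2a was at 0.23 ± 0.10 in males and 0.20 ± 0.10 in females, and both passed with the replicate block (0.22, adjusted p = 0.000184, and 0.19, adjusted p = 0.00273, by edgeR's quasi-likelihood test). Sv2c went from 159, 167 and 192 to 112, 138 and 149 CPM in males at 1 week and from 209.7, 247 and 269 to 150.5, 180 and 195 in females at 1 week, but in females at 5 weeks it was at 184, 215 and 258 against 209.9, 229 and 281. Its male 5 week fall of 22.1% was lost with the 1 week controls (-0.12, adjusted p = 0.141).

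Sncg and Sncb encode γ- and β-synuclein, small proteins found with vesicles, and neither passed in any group. Sncg, the gene of highest level, had 1300.2, 1417 and 1542 CPM on the opposite and 1257, 1387 and 1674 on the injured side of males at 1 week, and its log2 differences over the 5 groups lay between -0.01 and 0.08. In males at 5 weeks Sncb passed with the replicate block (0.10, adjusted p = 0.0358 by edgeR's quasi-likelihood test). Against the other week's controls Sncg was at -0.33 in males at 1 week and 0.37 at 5 weeks, and its opposite-side level was 0.33 higher at 5 weeks than at 1 week. Neurexins span the presynaptic membrane and bind partners across the cleft. Nrxn3 fell by 30.4% and 24.3% in males at 1 and 5 weeks and by 33.2% in females at 1 week, and Nrxn2 fell by 14.2% and 16.4% at 1 week. Neither passed in females at 5 weeks.

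The change from 24 h to 1 week was tested in males as the difference between their side differences. It was more negative at 1 week for 21 genes and more positive for 2 (Stx1a and Doc2b), where 12.0% and 11.0% of all genes were called. The largest falls were those of Vamp1 at -0.80 ± 0.10, Snap25 at -0.74 ± 0.09, Rab3a at -0.61 ± 0.09 and Rab3c at -0.58 ± 0.10 (log2). Doc2b, which has few counts, had the largest value of either sign, 1.49 (SE 0.535). Pclo and Rims1 were already lower at 24 h, and their side difference changed by -0.27 ± 0.09 and -0.33 ± 0.10. The side difference of Rims2, which had risen at 24 h, changed by -0.23 ± 0.08. The call of Stx1a (0.26 ± 0.10) was lost without each of 17 libraries and that of Doc2b without each of 11 of the 26. With the replicate block, Cplx2 (-0.30), Sv2a (0.33), Syt4 (0.26), Syt9 (-0.39) and Syt11 (-0.10) were also called. The 24 h and 1 week libraries lie in different tables, so time and table cannot be told apart here.

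From 1 to 5 weeks the side difference changed in females for 9 genes, 8 of them upward and 1 downward (7.65% and 5.87% of all genes called), and in males for none (0.211% of all genes called). In males 6 genes had an unadjusted p under 0.05; DESeq2 called Cplx2, and the replicate block called Cplx2 (0.42, adjusted p = 0.000696) and Rab3a (0.27, adjusted p = 0.0269). In females the difference moved up for Pclo (1.02 ± 0.09), Rab3c (0.66 ± 0.10), Sv2c (0.63 ± 0.11), Nrxn3 (0.43 ± 0.13), Syn3 (0.36 ± 0.08), Rph3a (0.35 ± 0.12), Bsn (0.29 ± 0.05) and Sv2b (0.28 ± 0.08), and down for Syt4 (-0.43 ± 0.11). Of these, 7 are genes that were lower at 1 week and moved toward the level of the opposite side. The side difference of Syt4 was smaller at 5 weeks than at 1 week, and that of Bsn went from no call to a rise. Against the 1 week opposite libraries, however, the injured 5 week libraries of females were still lower for Pclo (-0.26, adjusted p = 0.00173), Rab3c (-0.20, adjusted p = 0.0203) and Syn3 (-0.15, adjusted p = 0.0299 by edgeR's quasi-likelihood test), while Sv2c (-0.06) and Nrxn3 (-0.20, adjusted p = 0.0836) did not pass.

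The levels behind the Pclo change moved on both sides. On the injured side Pclo rose from 1 to 5 weeks by 0.71 ± 0.06 on the log2 scale, and on the opposite side it fell by 0.31 (SE 0.06). Rab3c and Sv2c rose on the injured side by 0.51 ± 0.07 and 0.44 ± 0.08, and their opposite-side change did not pass. Pclo was the only one of the 39 genes called between the weeks on the opposite side of females (7.54% of all genes called lower), where 10 had an unadjusted p under 0.05. On the injured side 18 of the 39 were called (17.2% of all genes), 17 of them higher at 5 weeks. On the opposite side of females 11 of 12 myelin genes and 7 of 11 fibroblast and vessel genes were also lower at 5 weeks than at 1 week, and their part was not tested.

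With the ribosomal share as covariate 5 genes remained called, with Pclo at 1.08, Rab3c at 0.72 and Sv2c at 0.71, each larger than without it. The calls of Nrxn3 (0.52), Rph3a (0.37), Sv2b (0.30) and Syt4 (-0.37) were lost (adjusted p = 0.107, 0.305, 0.185 and 0.196 by edgeR's quasi-likelihood test), with the first 3 values slightly larger than before and that of Syt4 slightly smaller. In females at 1 week this share did not overlap between the sides, so share and side cannot be told apart there. Against the 5 week controls the female 1 week values were -0.66 for Pclo, -0.56 for Rab3c and -0.30 for Sv2c, in place of -0.97, -0.71 and -0.49. With the replicate block Cplx2 (0.30), Syt1 (0.25), Sv2a (0.22), Syn2 (0.15) and Rims2 (-0.19) were called in addition. Rph3a was lost with that block (adjusted p = 0.0555) and without each of 19 of the 26 libraries, and Sv2b without the injured 5 week library 2 (adjusted p = 0.0501).

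**Figure D5:**
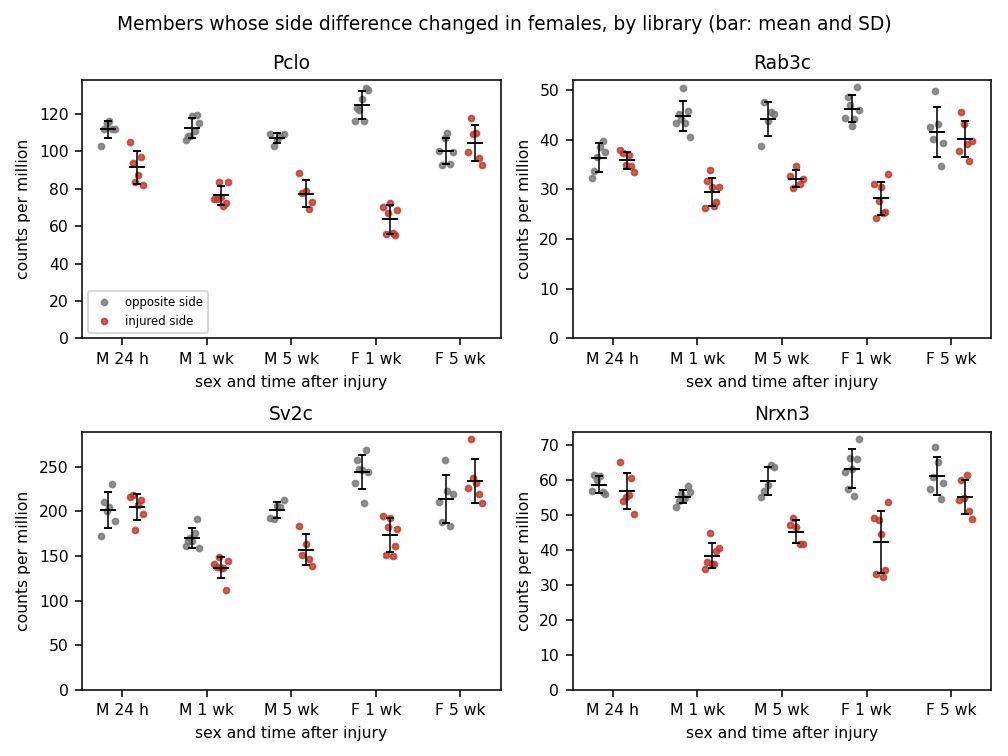
Levels in CPM (y axis) of Pclo, Rab3c, Sv2c and Nrxn3 by sex and time (x axis); points are libraries, grey for the opposite and red for the injured side, and bars show the mean and SD. The sides are apart in females at 1 week and overlap in females at 5 weeks.

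In males the opposite side itself changed between the weeks for 8 of the 39 genes, all higher at 5 weeks (7.32% of all genes called higher): Sncg by 0.33 ± 0.06, Sv2c, Syt2, Syn2, Bsn, Vamp2, Cplx1 and Syt11. This count was 1 with the ribosomal share as covariate and fell to 3 without the opposite 5 week library 3 or 5. On the injured side of males 19 genes were called (14.4% of all genes), 18 higher at 5 weeks, led by Cplx2 at 0.52.

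Sexes were compared as the difference of their side differences, and most release genes gave no call. At 1 week Pclo alone differed, with a female minus male value of -0.42 ± 0.08 (0.702% of all genes called in that direction). In the 5 week groups Pclo (0.49 ± 0.09), Sv2c (0.46 ± 0.11) and Rab3c (0.37 ± 0.10) differed, each higher in females than in males (1.55% of all genes called in that direction). Rab3c lost its call with the ribosomal covariate (0.35, adjusted p = 0.0832 by edgeR's quasi-likelihood test) and without each of 10 libraries, and without the opposite female 5 week library 3 the count was 5. DESeq2 also called Unc13c at 5 weeks (0.54, adjusted p = 0.0367). A p above the threshold does not show that the sexes respond alike: the 95% interval of the sex difference at 1 week ran from -0.14 to 0.23 for Vamp1, from -0.04 to 0.31 for Snap25, from -0.05 to 0.38 for Syt4 and from -0.13 to 0.17 for Erc2. At 1 and 5 weeks the sexes lie in different tables, so sex and table cannot be told apart.

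Around the release genes, 143 further genes of the same pathway were listed in 8 groups, and 136 were tested. At 24 h 19 were higher and 6 lower (8.20% and 5.89% of all genes). Male ganglia had 33 higher and 56 lower at 1 week (23.6% and 23.4% of all genes), then 24 higher and 53 lower at 5 weeks (16.0% and 18.7%). Female ganglia had 34 higher and 55 lower at 1 week (23.9% and 21.7%), then 33 higher and 45 lower at 5 weeks (22.8% and 19.1%). At 1 and 5 weeks the share called higher was near that of all genes and the share called lower above it. These genes too were chosen with earlier results known, and the difference was not tested. Their median log2 differences of 0.01, -0.03, -0.07, -0.05 and -0.03 were nearer to 0 than those of the 39 genes at 1 week. The groups below are read in males at 1 week against 23.4% of all genes lower and 23.6% higher. In the group of other SNARE and SM proteins, 5 of 20 were lower and 4 higher, shares near those of all genes: Napg (γ-SNAP) was at -0.32, and Stxbp2 and Stx4 at 0.66 and 0.14. Among 18 other synaptotagmins and sensors 8 were lower and 5 higher, with Syt3 at -0.92, Syt12 at -0.87, Esyt1 (an extended synaptotagmin) at 0.52 and Sytl3 at 0.50.

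Of 21 further priming and active zone genes, 9 were lower and 4 higher in males at 1 week (23.4% and 23.6% of all genes). Lin7a was at -0.66, while Ppfia2 (liprin-α2) at 0.35 and Rims4 at 0.33 were among those that rose. Of the 12 Rab3 and Rab27 cycle genes, 5 were lower and 2 higher, with Madd (a Rab3 exchange factor) at -0.31, Rab3ip at -0.56, Rab3gap2 at 0.32 and Rab3il1 at 0.47. Of 15 other vesicle membrane genes, 6 were lower and 5 higher, with Scamp5 at -0.35, Scamp1 at -0.34, Tprg1l at 0.43 and Syngr3 at 0.24.

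Of 6 vesicular transmitter transporters tested, 2 were lower and 3 higher in males at 1 week (23.4% and 23.6% of all genes). Slc17a7 (VGLUT1, which fills vesicles with glutamate) fell by 0.57 on the log2 scale there and was at -0.52, -0.47 and -0.47 in males at 5 weeks and females at 1 and 5 weeks. Slc17a8 (VGLUT3) was at -0.98 and Slc17a9, the vesicular nucleotide transporter, at 0.95. Slc18a2 (VMAT2, which loads monoamines) rose by 1.34, 1.65, 1.61 and 1.37 in the same 4 groups and was at 0.05 ± 0.14 at 24 h. Of 28 endocytosis genes, 13 were lower and 6 higher in males at 1 week: Amph and Dnm3, a vesicle coat adaptor and a dynamin, were at -0.78 and -0.61, and Bin1 and Itsn1 at 0.60 and 0.22. Of 16 dense-core vesicle genes 8 were lower and 4 higher. Vgf, a secreted neuropeptide precursor, rose by 2.49 at 24 h and by 2.38 to 2.64 later, and Ptprn by 0.69 in males at 1 week, while Chga (chromogranin A) and Pcsk2 were at -0.85 and -0.57.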

How the data were processed

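Sequence was read from 62 ganglion libraries made with a stranded poly-A kit; the labels' protocols give an RNA integrity number of 7.5 or more and single-end reads of 75 nt (NextSeq 500) or 100 nt (NextSeq 2000), with no note of the machine per library. Per the submitters' processing notes, the tools were STAR 2.7.2b, featureCounts 1.6.4, cutadapt 2.5 and bcl2fastq 2.20.0.422 on build mRatBN7.2, and the strand setting of the counting is not given in the sources used here. What the authors deposited are estimated counts: 74.1% (male 1 and 5 week table) and 78.2% (the other table) of values above 0 are whole, and the others are fractions. The test plan had assumed plain counts. Values were rounded first, with library totals changing by no more than 0.0054%. One table has the 24 libraries of males at 1 and 5 weeks (18.9 to 33.5 M counts) and the other the 38 libraries of females and of males at 24 h (16.9 to 26.6 M counts).

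Each table was fitted whole with edgeR 4.0.16 in R 4.3.3: TMM scaling, genes filtered with filterByExpr (group-wise, at least 10 counts), 1 coefficient per group and the robust quasi-likelihood F test, with Benjamini-Hochberg adjustment over all genes tested and a threshold of 0.05. A joint fit of both tables gave the comparisons across tables. The SE of a log2 fold change was taken as its size over √F. CPM values use the scaled library sizes, set separately per table. DESeq2 1.42.0, Python 3.11.15 and pandas 2.3.3 were also used, and the fit was tested on simulated data.

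The genes, pathway lists and cell type lists were chosen with earlier results of these data known. Values per library are given for the 3 genes of largest and the 3 of smallest mean log2 fold change at 1 and 5 weeks, genes called at 24 h or in the changes between weeks or sexes, and the gene of highest level per kilobase in each role. From each pathway list the 2 genes of smallest p per direction in males at 1 week are named, apart from some that are not reported here. Other genes were named beside these after their values were seen.

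The correlation of same-numbered libraries after removal of group means was above 0.1 in all pairs of males at 1 week (7), males at 5 weeks (5) and females at 5 weeks (6), in 6 of 7 of females at 1 week and in 4 of 6 at 24 h. In the table with the females the labels also give both sides of a number the same code, so numbers were treated as pairing the sides in the block. Alternatives were DESeq2, RLE size factors, no filter and a filter at 50 counts, fits of 2 groups alone, the replicate block and leaving out each library. Added after seeing the data were the ribosomal RNA share (139 genes) as a covariate and the opposite-side libraries of the other week as controls.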

Additional observations from a re-analysis of the deposited data

Results flagged for a closer look

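A library lay apart from the others of its group in 14 of 190 groups of libraries examined, where chance alone gives about 1 in 20 groups. On the opposite side these were Vamp1 in males at 1 week (959 CPM, library 7, lowest), Snap25 in females at 1 week (1663, library 6, highest), Syt11 in females at 1 week (1261, library 6, highest), Erc2 (54.2, library 4, highest), Cadps (457, library 4, highest) and Pclo (103, library 1, lowest) in males at 24 h, and Cadps in females at 5 weeks (476, library 3, highest). On the injured side they were Syt4 (379, library 3, lowest), Sv2c (112, library 6, lowest) and Syt11 (1215, library 6, highest) in males at 1 week, Syp in females at 5 weeks (657, library 2, highest) and in males at 5 weeks (681, library 3, highest), and Bsn in females at 1 week (140.2, library 3, highest) and in males at 24 h (101, library 3, lowest). The lowest injured library of Syt4 still lay above its highest opposite library, and the lowest opposite library of Vamp1 above its highest injured one.

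The side difference changed between times or sexes for the following genes, each by a test of the change itself on the log2 scale. From 24 h to 1 week in males it moved down for Vamp1 (-0.80), Snap25 (-0.74), Rab3a (-0.61), Rab3c (-0.58), Unc13c (-0.54), Syt2 (-0.50), Rph3a (-0.48), Nrxn3 (-0.48), Syn2 (-0.46), Cadps (-0.46), Nsf (-0.42), Sv2b (-0.42), Syn1 (-0.39), Sv2c (-0.34), Rims1 (-0.33), Syp (-0.30), Pclo (-0.27), Rims2 (-0.23), Cplx1 (-0.23), Unc13a (-0.23) and Napb (-0.21), and up for Stx1a (0.26) and Doc2b (1.49). From 1 to 5 weeks in females it moved up for Pclo (1.02), Rab3c (0.66), Sv2c (0.63), Nrxn3 (0.43), Syn3 (0.36), Rph3a (0.35), Bsn (0.29) and Sv2b (0.28), and down for Syt4 (-0.43). Between sexes it differed for Pclo at 1 week (-0.42, female minus male) and at 5 weeks (0.49), and for Sv2c (0.46) and Rab3c (0.37) at 5 weeks. Pclo was the gene whose sex difference passed at both times, with opposite sign.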

How the results depend on the processing

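Of the 113 calls of release genes between sides, DESeq2, RLE size factors, the stricter filter and the replicate block lost none, and leaving out 1 library lost 9 at least once. The replicate block gave 10, 32, 32, 32 and 23 called genes in males at 24 h, 1 week and 5 weeks and in females at 1 and 5 weeks, in place of 8, 30, 27, 28 and 20, and calls it changed stand beside the results. Shares of all genes called with the block or the other settings named here are not given, so these counts cannot be set against all genes. The median difference was -0.41 in males at 1 week, -0.11 in males at 5 weeks and -0.094 in females at 5 weeks with the controls of the other week, and -0.37 in females at 1 week with the ribosomal share as covariate. Without 1 library the male 5 week median ran from -0.24 to -0.18, the latter without the opposite library 3. Syt11 in males at 5 weeks turned from -0.12 to 0.0017 with the 1 week controls. Called pathway genes numbered 16 in place of 25 at 24 h with the 2 groups fitted alone, and 58 in place of 89 in females at 1 week with the ribosomal covariate.

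The change from 1 to 5 weeks in males had 1 call with DESeq2, 2 with the replicate block and 0 to 1 without 1 library (1 without the injured 1 week library 3 or the opposite 5 week library 3). In females it had 5 with the ribosomal covariate. The sex difference at 5 weeks had 2 to 5 calls without 1 library. The opposite side of males between weeks had 4 calls with no filter, 1 with the ribosomal covariate and 3 to 9 without 1 library, and that of females 1 to 2. The injured side between weeks had 11 calls in males and 9 in females with the ribosomal covariate. The cause of these moves was not tested, and the shares of all genes called in these settings are not given here. With the other week's controls further genes were called. In males at 1 week these were Bsn (-0.14), Sncb (-0.21), Syt11 (-0.18), Unc13a (-0.13) and Vamp2 (-0.15), and in males at 5 weeks Bsn (0.21), Cplx1 (0.17), Cplx2 (0.21), Rab3b (0.44), Rims2 (0.12), Sncb (0.25) and Syt5 (0.21). In females they were Cplx1 (-0.11), Cplx2 (-0.22) and Unc13a (-0.22) at 1 week, and Pclo (-0.26), Rab3b (0.56), Rab3c (-0.20), Rims2 (0.20), Syn3 (-0.15), Syt5 (0.20), Unc13a (0.17), Unc13c (-0.33) and Vamp2 (0.20) at 5 weeks. Calls were also gained by Sv2b at 24 h with the stricter filter, by Sv2a in males at 1 week with DESeq2 and the stricter filter, and by Cplx1 and Cplx2 in females at 1 week with DESeq2 and RLE size factors (Cplx1 also with the 2 groups alone). The change from 24 h to 1 week lost Stx1a with no filter and with the ribosomal covariate, and Doc2b with no filter; that of females from 1 to 5 weeks lost Rph3a with RLE size factors and with no filter. DESeq2 called Unc13c between sexes at 5 weeks, Syn3 (also with the stricter filter) between weeks on the opposite side of males and Sv2a on the injured side, where Syt1 was lost with no filter. Calls of Napb and Syt11 in males at 5 weeks and Syt7 in females at 1 week were lost with the 2 groups fitted alone, and that of Syt9 in females at 5 weeks with no filter. Doc2b missed the filter at 50 counts. Depth limits Doc2b and Rab3b most.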
